A study of Mus musculus with 16 samples.

Results

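The comparison described here set wild-type (WT) mice treated with CFA against naive WT mice, in punches of the ventral posterolateral nuclei of the thalamus. It comprised 8 of the 16 libraries of the series, chosen by their genotype and treatment labels. These were 4 WT naive libraries (numbers 1 to 4) and 4 WT CFA libraries (numbers 9 to 12), and 18350 genes passed the filter on low counts in a fit of the 16 libraries. Each library pooled 4 punches of 12 gauge, taken bilaterally from 2 mice, so a value is an average over a pool. CFA is not written out in the labels. In work on pain it usually means complete Freund's adjuvant, which is injected to cause lasting inflammation. The labels give no strain, age or time after treatment, and sex is given as female per sample but as male in the protocol. The other 8 libraries, 4 naive and 4 CFA, carry the genotype label RGS4KO. For these the series text describes a floxed RGS4 gene and an adeno-associated virus that expresses Cre in the same nuclei. Whether the WT animals received a virus is not given in the sources used here. The libraries labelled RGS4KO shared the estimate of the spread and served as a second set in which CFA was compared with naive.

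The ventral posterolateral nucleus relays touch, temperature and pain signals from the body to the somatosensory cortex, mainly through excitatory neurons. Its cells, like all others, fold secreted and membrane proteins in the endoplasmic reticulum (ER), and raise ER chaperones when unfolded protein builds up there. Immediate early genes are transcribed within minutes of neuronal activity or other stimuli, while glucocorticoids, released in stress and on a daily rhythm, act through a nuclear receptor on genes such as Fkbp5. Each of these programmes was followed with a list of its known genes.

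Total counts ranged from 36.4 to 54.7 M in the naive and from 42.2 to 53.9 M in the CFA libraries. The share of listed reads that did not align uniquely was 24.1% to 24.8% in naive and 25% to 26% in CFA libraries. These ranges did not overlap (exact two-sided permutation test, p = 0.0286, the smallest that 4 against 4 libraries allows), and the part of this share in the results below was not tested. Rgs4 stood at 78.4, 85.2, 77.3 and 82.6 CPM (counts scaled to the library total, the standard edgeR unit) in the naive and 96.8, 87.6, 91.9 and 81.1 CPM in the CFA libraries. The groups overlapped for Rgs4 (exact two-sided permutation p = 0.0857), and its level in the libraries labelled RGS4KO was 81.3 ± 2.74 (naive) and 84.1 ± 5.51 CPM (CFA; SD, n = 4 each), so their label was not borne out by a lower Rgs4 level. Summed counts of 4 Y-linked genes were 57 in naive library 2 and at most 5 in each of the other libraries, and the fits without 1 WT library given below include one without it.

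Markers of thalamic relay neurons were present throughout. Slc17a6, the vesicular glutamate transporter of these neurons, lay at 461 ± 16.2 CPM in naive and 461 ± 23.9 CPM in CFA libraries, and the transcription factor gene Tcf7l2 at 128 ± 15.4 and 141 ± 20.1 CPM. Genes of midbrain neurons were present too. Tph2, which makes serotonin in raphe neurons, stood at 545, 646, 436 and 283 CPM in the naive and 340, 58.9, 272 and 254 CPM in the CFA libraries, a wide range within each group. The summed level of 11 tested genes of Edinger-Westphal and oculomotor neurons, cell groups of the midbrain, was 85.3, 91.7, 100.6 and 63.9 CPM in the naive and 510.0, 335.9, 446.4 and 403.4 CPM in the CFA libraries. The WT groups thus did not overlap in this sum. In the libraries labelled RGS4KO it ranged from 66.4 to 356.1 CPM without CFA and from 107.8 to 267.8 CPM with CFA. Summed markers also stood apart between the WT groups for reticular thalamus (1192 to 1328 against 1361 to 1527 CPM) and for astrocytes (4873 to 4946 against 4983 to 5160 CPM). The part of these sums in the other results was not tested.

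**Figure D1:**
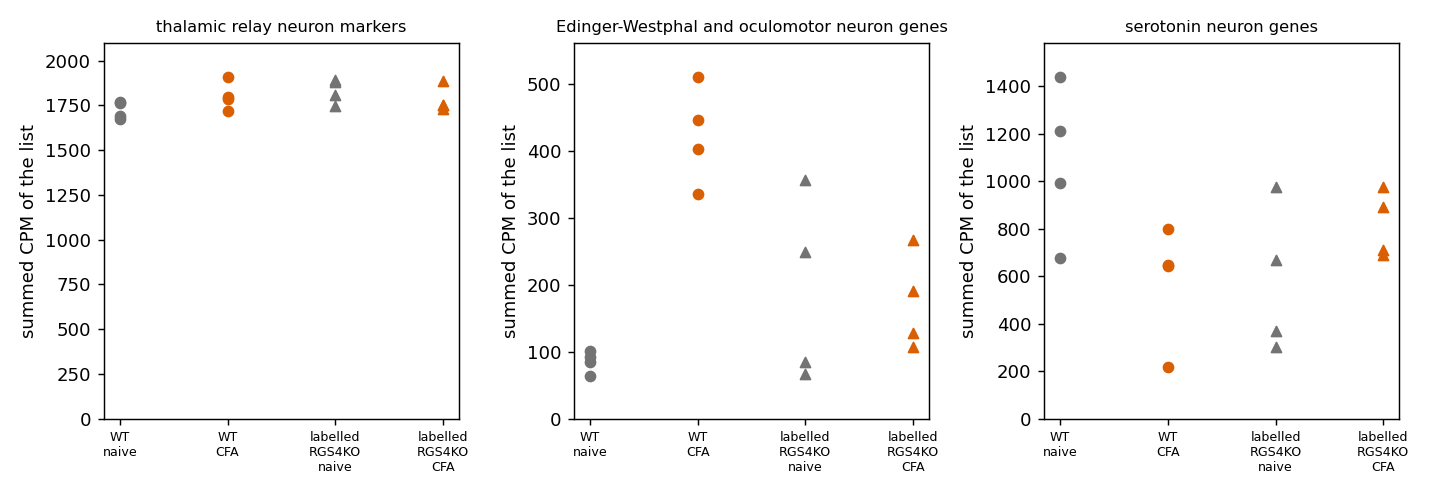
Summed CPM (y axes) of the tested genes of 3 marker lists, with 1 point per library in the 4 groups (x axes). Relay neuron markers lay close together in every library, the Edinger-Westphal and oculomotor sum separated the WT groups and was spread widely in the libraries labelled RGS4KO, and the serotonin neuron sum varied within each group.

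The promoters of 4 ER chaperone genes called higher after CFA are shown because they hold the ER stress element, the sequence through which the sensor ATF6 acts together with the factor NF-Y. The element was searched as CCAAT and CCACG 9 bases apart, on both strands, in the 250 bases before each RefSeq gene start (build GRCm38.p6). It was chosen for the search after the values had been seen. Capitals mark its left and right parts, which on the reverse strand read CGTGG and ATTGG, and each line gives 220 bases up to the gene start, 5′ to 3′ on the gene's own strand. The windows lie at chr2:34771870-34772089 (Hspa5, plus strand), chr10:86705445-86705664 (Hsp90b1, minus strand), chr12:17266369-17266588 (Pdia6, plus strand) and chr14:118937712-118937931 (Dnajc3, plus strand). The GENCODE models of Hspa5, Hsp90b1 and Pdia6 begin inside these windows.
Hspa5: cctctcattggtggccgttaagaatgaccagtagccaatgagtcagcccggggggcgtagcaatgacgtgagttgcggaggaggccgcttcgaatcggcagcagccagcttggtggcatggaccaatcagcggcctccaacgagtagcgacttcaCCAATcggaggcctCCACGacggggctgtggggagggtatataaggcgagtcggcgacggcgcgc
Hsp90b1: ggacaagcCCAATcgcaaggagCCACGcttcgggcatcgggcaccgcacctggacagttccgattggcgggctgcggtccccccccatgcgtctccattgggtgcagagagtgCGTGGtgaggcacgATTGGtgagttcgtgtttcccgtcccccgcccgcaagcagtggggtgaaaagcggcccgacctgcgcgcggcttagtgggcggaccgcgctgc
Pdia6: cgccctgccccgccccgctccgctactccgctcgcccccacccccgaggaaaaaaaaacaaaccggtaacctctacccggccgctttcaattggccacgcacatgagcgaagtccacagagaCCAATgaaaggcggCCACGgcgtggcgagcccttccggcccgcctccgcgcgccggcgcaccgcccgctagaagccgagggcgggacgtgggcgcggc
Dnajc3: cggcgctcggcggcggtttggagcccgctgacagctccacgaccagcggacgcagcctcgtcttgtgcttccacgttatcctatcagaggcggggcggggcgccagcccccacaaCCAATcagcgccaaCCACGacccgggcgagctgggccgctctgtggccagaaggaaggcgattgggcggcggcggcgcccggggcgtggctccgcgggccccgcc
The element stood in 37 of 32851 promoter windows of the genome (0.113%). It was in 4 of the 10 called ER genes that matched a RefSeq promoter and in 7 of the 21 matched members of the whole list. Motifs of the other lists were searched on both strands, and counts are of called genes with a matched promoter. The heat shock element core GAANNTTC was in 1 of 5 heat shock genes (6.69% of all windows). The cAMP response element TGACGTCA was in 0 of 5 immediate early genes (1.55%). The glucocorticoid response motif AGAACA was in 0 of 3 glucocorticoid-responsive genes (16.1%). The sterol regulatory element core TCACNCCAC was in 0 of 1 sterol gene (1.05%). The E-box CACGTG was in 1 of the 2 clock genes called lower (6.02%), and clock genes called higher were not counted. Over all matched members of their lists, the heat shock core was in 7 of 16 genes and the E-box in 5 of 16. The cAMP, glucocorticoid and sterol motifs were in 2 of 24, 3 of 13 and 1 of 14. The right part of the ER stress element alone, CCACG, was in 28.3% of all windows. It was in 6 of the 10 matched called ER genes and 14 of the 21 matched ER members. A match describes these letters only.

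CFA and naive WT libraries differed at 409 of 18350 genes (2.23%) at an adjusted p under 0.05 in the edgeR quasi-likelihood test. Of these, 261 were higher (1.42% of the genes tested) and 148 lower (0.807%) after CFA. Most changes were small: the median log2 change was 0.28 among the genes called higher and -0.24 among those called lower, 74 called genes changed over 1.5-fold and 31 over 2-fold (26 higher, 5 lower). The libraries of the 2 groups did not overlap in 398 of the called genes, against 11.3% of all genes tested. The calls rest on these same libraries, so this is no separate support for them. Among the lowest p-values were those for rises of Hr, Htra1, Ghsr, Paqr8, Id2, Prss12 and Caln1 and falls of Rfx4, Aacs, Rsrp1, Tspoap1, Mvd, Rpl29, Pprc1 and Tnxb. Leaving out 1 WT library at a time left between 178 (without naive library 2) and 338 genes called. The count was 754 without naive library 8 labelled RGS4KO, which belongs to neither WT group but enters the count filter, the scaling and the shared spread. Of the 409 genes, 127 (95 higher, 32 lower) were called in each of these 8 fits.

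**Figure D2:**
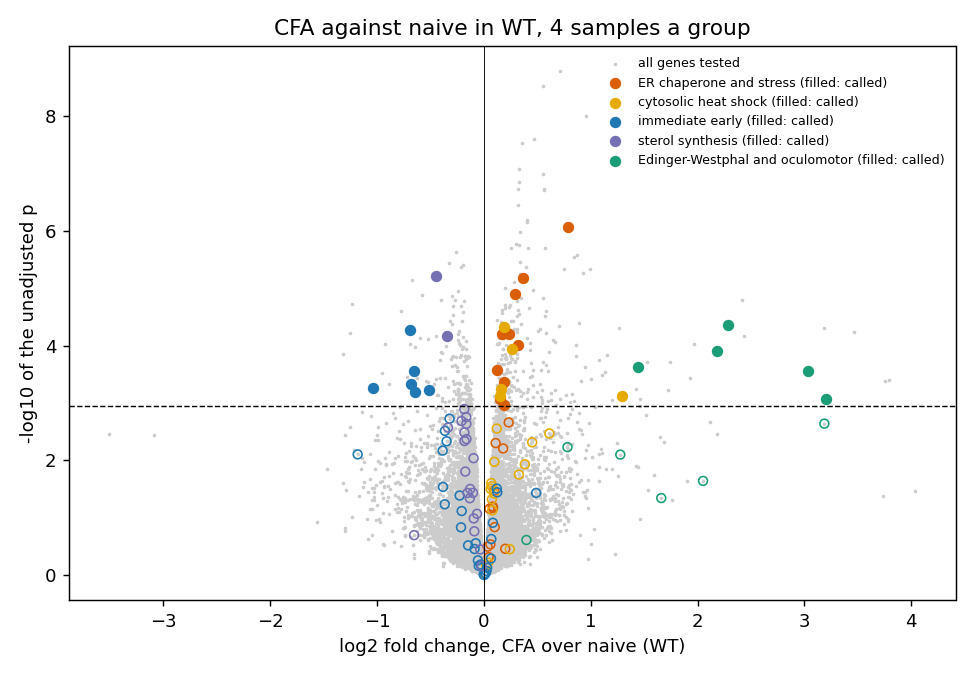
Log2 fold change (CFA over naive, x axis) against the −log10 of the unadjusted p (y axis) for each of 18350 genes in WT, with 5 gene lists in colour. Filled points were called, open points were not, and the dashed line marks the highest unadjusted p among called genes. Called ER chaperone and heat shock genes lie to the right, called immediate early and sterol genes to the left, and called Edinger-Westphal and oculomotor genes at the far right.

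Several genes for ER chaperones and folding enzymes rose after CFA. Of 24 tested members of this list 11 rose and 0 fell, against 2.23% called among all genes. A fold above 1 was found in 23 of 24, against 9085 of all 18350 genes. The median log2 change was 0.16, against -0.001 over all genes. Hspa5 encodes BiP, the main ER chaperone and a brake on the stress sensors. It stood at 351, 297, 327 and 335 CPM in the naive libraries and at 438.5, 394, 422 and 428 CPM in the CFA libraries. Each CFA library was above each naive one (fold 1.29, 95% interval 1.18 to 1.40, adjusted p = 0.00353). Sdf2l1, which partners BiP in keeping unfolded proteins soluble, rose most in this list. Its level was 8.37, 5.44, 6.83 and 8.62 CPM in naive and 12.4, 11.3, 12.7 and 13.9 CPM in CFA libraries (fold 1.73, interval 1.47 to 2.03, adjusted p = 0.00105), again with no overlap.

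The disulphide isomerases, which form and shuffle disulphide bonds in new proteins, moved by less. Pdia4 was at 50.8, 45.0, 49.0 and 51.7 CPM in naive and 62.3, 56.6, 60.8 and 60.7 CPM in CFA libraries (fold 1.23, adjusted p = 0.00549). Pdia6 (fold 1.14, adjusted p = 0.0305) and Pdia3 (fold 1.12, adjusted p = 0.0109) also rose. The BiP co-chaperone genes Dnajc3 (87.4 ± 4.04 to 103 ± 3.22 CPM, adjusted p = 0.0109) and Dnajb11 (41.2 ± 2.03 to 47.9 ± 1.65 CPM, adjusted p = 0.0109) rose by 1.18-fold and 1.16-fold. Manf, a secreted ER stress protein with trophic effects on neurons, rose 1.24-fold (adjusted p = 0.0134). Hsp90b1, the ER form of the HSP90 chaperone, rose 1.11-fold (adjusted p = 0.0434). Sel1l, part of the machinery that removes misfolded proteins, rose 1.09-fold (adjusted p = 0.0237), and Xbp1, a transcription factor of the response, 1.14-fold (adjusted p = 0.0489).

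The 3 listed genes of the stress arm that runs through ATF4 did not pass the test. Atf4 stood at 97.3 ± 3.31 and 95.7 ± 4.52 CPM (adjusted p = 0.876), Ddit3, which encodes CHOP, at 19.1 ± 1.65 and 20.4 ± 0.539 CPM (adjusted p = 0.462), and Trib3 at 0.635 ± 0.155 and 0.725 ± 0.178 CPM (adjusted p = 0.676). The calreticulin gene Calr was 1.13-fold higher without passing it (adjusted p = 0.110). In 7 of the 11 called genes the call held in each of the 8 fits without 1 WT library, namely Sdf2l1, Hspa5, Pdia4, Dnajb11, Pdia3, Dnajc3 and Manf. The count of called members was 7 to 12 in those fits, with 7 without naive library 2, 3 or 4 or CFA library 11 or 12. In the libraries labelled RGS4KO the 11 genes had CFA folds of 1.05 to 1.45, all in the same direction as in WT, and Hspa5 was called there (319.6 ± 14.9 to 392.6 ± 31.6 CPM, fold 1.23, adjusted p = 0.0414). The test of a difference between the 2 sets gave adjusted p-values of 0.581 and above for these genes.

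**Figure D3:**
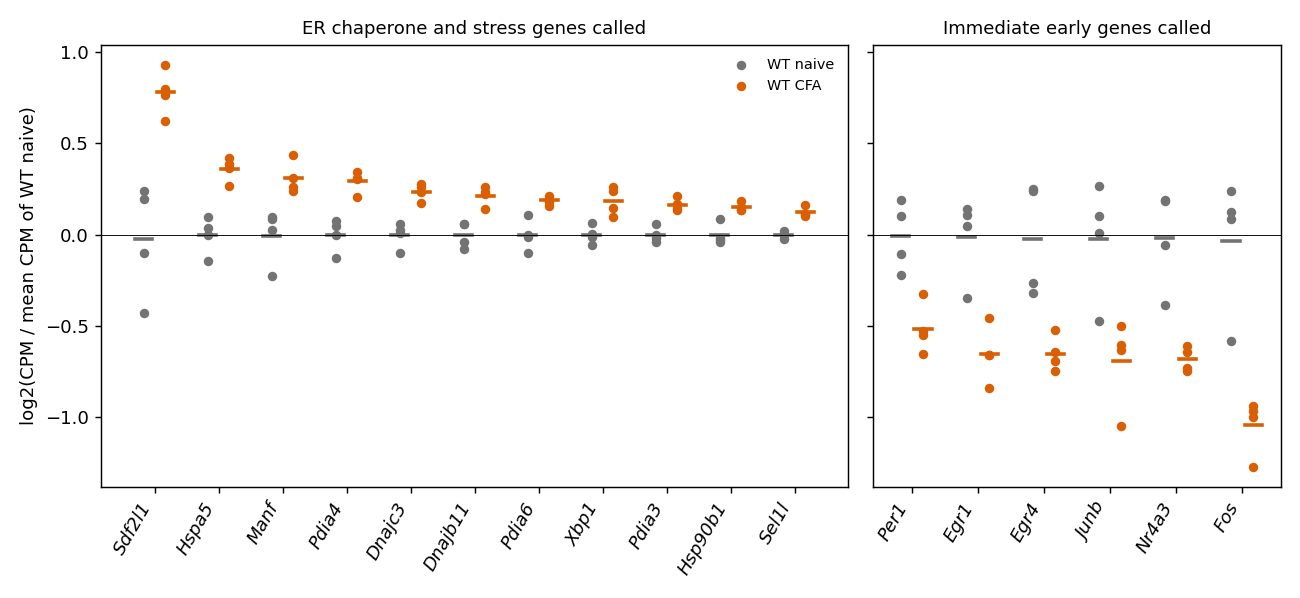
Level of each called ER chaperone and stress gene (left) and each called immediate early gene (right) in the 8 WT libraries, as log2 of CPM over the naive mean (y axis), with bars at the group means of these values. CFA libraries lie above the naive ones in the left panel and below them in the right panel, where naive library 1 comes close to the CFA libraries, closest for Junb.

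Cytosolic heat shock genes gave fewer calls, in the same direction. Of 21 tested members 5 rose and 0 fell, against 1.42% called higher among all genes. Each of the 21 had a fold above 1, against 9085 of all 18350 genes, and the median log2 change was 0.12. Hspa1b, which encodes the inducible chaperone HSP70, was at 1.91, 1.38, 1.49 and 2.26 CPM in naive and 4.17, 2.78, 4.56 and 5.57 CPM in CFA libraries. The groups did not overlap (fold 2.45, interval 1.56 to 3.84, adjusted p = 0.0409). Its near-identical copy Hspa1a, with which it may share reads, was at 1.91 ± 0.125 and 2.62 ± 0.381 CPM (adjusted p = 0.0992), so the split between them is uncertain. Stip1, the adaptor that passes clients from HSP70 to HSP90, was at 256, 243, 235 and 243 CPM in naive and 278, 278.5, 273 and 281 CPM in CFA libraries. These did not overlap either (fold 1.14, adjusted p = 0.0105). The HSP70 nucleotide exchange factor genes Hsph1 (fold 1.12, adjusted p = 0.0356) and Hspa4l (fold 1.11, adjusted p = 0.0404) and the HSP90 co-chaperone gene Chordc1 (fold 1.20, adjusted p = 0.0144) made up the rest, Chordc1 losing its call without naive library 2 alone. Stip1 kept its call in each of the 8 fits without 1 WT library, and Hspa1b, Hsph1 and Hspa4l each kept theirs in 1 of them. The list's count was 1 to 3 there, with 1 without naive library 2. The call for Hspa1b also ended with no filter on low counts (adjusted p = 0.0809) and with counts thinned to the shallowest library (adjusted p = 0.164). Dnajb1, a classical heat shock target, was at 64.6 ± 4.48 and 66.4 ± 4.29 CPM (adjusted p = 0.843).

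Glucocorticoid-responsive genes gave 3 rises and 0 falls among 16 tested members, against 1.42% called higher among all genes. Their median log2 change was 0.20. Plin4, which encodes a lipid droplet coat protein, was at 8.70, 4.51, 11.6 and 8.65 CPM in naive and 37.8, 23.96, 18.1 and 32.6 CPM in CFA libraries. CFA library 11 was the lowest of its group, still above each naive library (fold 3.33, interval 2.03 to 5.49, adjusted p = 0.0187). Fkbp5, a co-chaperone that dampens the glucocorticoid receptor, was at 24.4, 23.9, 30.77 and 24.9 CPM in naive and 46.5, 35.6, 30.78 and 38.6 CPM in CFA libraries. Here naive library 3 and CFA library 11 all but met (fold 1.45, adjusted p = 0.0236). Cdkn1a, the gene of the cell cycle inhibitor p21, rose from 9.17 ± 1.08 to 18.4 ± 6.30 CPM (fold 2.00, adjusted p = 0.0292), with CFA library 9 highest at 27.0 CPM. These calls ended in a fit of the 8 WT libraries alone (adjusted p = 0.0602 for Plin4, 0.103 for Fkbp5 and 0.0938 for Cdkn1a), and none of the list was called without naive library 2 or without CFA library 12. The list was not uniform: Sgk1 was at 94.9 ± 16.3 and 72.3 ± 29.5 CPM (adjusted p = 0.567) and Pdk4 at 17.5 ± 2.83 and 12.9 ± 0.804 CPM (adjusted p = 0.102). The CFA folds in libraries labelled RGS4KO were 2.95 for Plin4, 1.40 for Fkbp5 and 2.02 for Cdkn1a, without passing the test (adjusted p = 0.147 to 0.171).

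Hr and Htra1 had the lowest p-values among the rises. Hr encodes a corepressor of nuclear receptors and is a known target of thyroid hormone in brain. It was at 38.6, 36.1, 34.5 and 34.6 CPM in naive and 64.95, 61.5, 51.1 and 58.5 CPM in CFA libraries, well apart (fold 1.64, interval 1.497 to 1.80, adjusted p = 2.73e-05). Htra1, a secreted serine protease, was at 98.5, 83.0, 93.1 and 95.4 CPM in naive and 145, 127, 131 and 139 CPM in CFA libraries. It did not overlap (fold 1.46, adjusted p = 2.73e-05), although it lies over part of Fgfr2 in the annotation. Mfsd2a, which carries lipids into the brain at its blood vessels, rose 1.49-fold (adjusted p = 0.00174). Id2, an inhibitor of basic helix-loop-helix factors, rose 1.26-fold (adjusted p = 0.000252), and Paqr8, which encodes a membrane progestin receptor, 1.28-fold (adjusted p = 0.000107).

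Glul, the astrocyte enzyme that makes glutamine from glutamate, was the most abundant gene to rise. It was at 1304, 1227, 1301 and 1327 CPM in naive and 1515, 1397, 1441 and 1479 CPM in CFA libraries, with no overlap (fold 1.13, adjusted p = 0.0144), and its call ended without naive library 2. None of 13 astrocyte markers passed the edgeR test, and DESeq2 called 1. An unadjusted p under 0.05 was found for 2 of them, against 3223 of all 18350 genes. Their summed level was higher in each CFA library, as given above. Hr, Htra1, Mfsd2a, Id2 and Glul rose in the libraries labelled RGS4KO as well, by 1.40, 1.245, 1.42, 1.23 and 1.15-fold (adjusted p = 0.00146, 0.0125, 0.0155, 0.00146 and 0.0194).

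Some immediate early genes fell after CFA. Of 33 tested members 6 fell and 0 rose (0.807% of all genes were called lower). The fold was above 1 in 10 of the 33, another 10 had every CFA library below every naive one (against 5.17% of all genes), and the median log2 change was -0.15. Fos, a subunit gene of the AP-1 factor and the usual marker of recent activity, was at 14.1, 22.4, 24.9 and 23.0 CPM in naive and 10.6, 10.8, 8.76 and 11.03 CPM in CFA libraries. Naive library 1 stood low, yet above the CFA group (fold 0.486, interval 0.345 to 0.683, adjusted p = 0.0350). Nr4a3, an orphan nuclear receptor induced by activity, was at 5.17, 7.68, 7.70 and 6.50 CPM in naive and 4.42, 4.03, 4.08 and 4.33 CPM in CFA libraries, without overlap (fold 0.620, adjusted p = 0.0108). The zinc finger factor gene Egr1 was at 55.1, 72.5, 75.6 and 77.2 CPM in naive and 44.3, 51.0, 39.2 and 44.4 CPM in CFA libraries (fold 0.638, adjusted p = 0.0374). Library 1 was again the lowest of the naive group. Egr4 (fold 0.636, adjusted p = 0.0241), Junb (fold 0.622, adjusted p = 0.0325) and Per1 (fold 0.6998, adjusted p = 0.0363) also fell.

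Other members of that list were flat or missed the threshold. Arc, which encodes a synaptic cytoskeletal protein, was at 19.1 ± 2.78 and 19.4 ± 1.13 CPM (adjusted p = 0.952), Npas4 at 6.56 ± 0.769 and 5.25 ± 0.308 CPM (adjusted p = 0.0643), Nr4a1 at 11.6 ± 2.45 and 8.87 ± 1.08 CPM (adjusted p = 0.115) and Bdnf at 30.9 ± 1.74 and 32.7 ± 0.916 CPM (adjusted p = 0.428). Nr4a3 was the 1 member called in each of the 8 fits without 1 WT library. The count of members called lower was 9 without naive library 1, between 1 and 3 without any other WT library, 2 with no filter on low counts and 10 in DESeq2. Junb was not called in a fit of the 8 WT libraries alone (adjusted p = 0.0719). Among libraries labelled RGS4KO the 6 genes had CFA folds of 0.618 to 0.935 and none passed the test, and neither did the difference between the sets (adjusted p of 0.433 and above).

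Of 22 tested sterol synthesis genes 2 fell and 0 rose in the test, against 0.807% called lower among all genes. Each of the 22 had a fold below 1 (0.636 to 0.985), 9 had every CFA library below every naive one (against 5.17% of all genes), and the median log2 change was -0.16. Mvd, the mevalonate pathway decarboxylase, was at 24.4, 28.7, 23.6 and 24.4 CPM in naive and 18.5, 18.8, 18.1 and 18.7 CPM in CFA libraries, a clear gap (fold 0.732, interval 0.659 to 0.814, adjusted p = 0.00335). Naive library 2 was the highest for Mvd, and its call held without that library and without each other WT library. Hmgcs1, an early enzyme of the pathway, was at 391 ± 25.3 and 348 ± 8.45 CPM (adjusted p = 0.0627). Aacs, which feeds ketone body carbon into lipid synthesis and is no member of the list, fell from 47.2 ± 3.18 to 37.5 ± 1.07 CPM (fold 0.795, adjusted p = 0.00253). The libraries labelled RGS4KO gave a median log2 change of -0.15 for the 22 genes, with Mvd (fold 0.770, adjusted p = 0.0445) and Idi1 (fold 0.808, adjusted p = 0.0120) called lower there.

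Among 18 tested circadian clock genes 2 rose and 2 fell, against 1.42% called higher and 0.807% called lower among all genes. Npas2, a partner of the core factor BMAL1, was at 5.88, 6.23, 6.17 and 6.09 CPM in naive and 9.11, 8.20, 9.22 and 9.62 CPM in CFA libraries. The groups lay far apart against their spread (fold 1.48, interval 1.33 to 1.65, adjusted p = 0.000327). Clock rose 1.095-fold (adjusted p = 0.0388), a call that ended without any 1 of the 8 WT libraries. Dbp, an output gene of the clock, was at 35.4, 32.9, 32.5 and 37.4 CPM in naive and 26.6, 29.2, 28.3 and 27.9 CPM in CFA libraries (fold 0.812, adjusted p = 0.00971). Per1, a repressor of the clock and also an immediate early gene, is given above. Nr1d1 (72.0 ± 5.96 and 70.8 ± 2.84 CPM, adjusted p = 0.876) and Per2 (35.4 ± 3.47 and 32.2 ± 0.790 CPM, adjusted p = 0.336) did not pass. The libraries labelled RGS4KO again gave Npas2 higher (fold 1.32, adjusted p = 0.0297) and Dbp lower (fold 0.814, adjusted p = 0.0359). The labels give no hour of day at which tissue was taken.

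Genes of Edinger-Westphal and oculomotor neurons were among the largest rises, and in bulk tissue more cells of a type and more RNA per cell cannot be told apart. Of 11 tested members 5 rose and 0 fell, against 1.42% called higher among all genes, and the median log2 change was 2.05. Cartpt, a peptide precursor of centrally projecting Edinger-Westphal neurons, was at 36.1, 28.2, 54.4 and 14.3 CPM in naive and 303, 228, 291 and 285 CPM in CFA libraries (fold 8.21, interval 3.31 to 20.4, adjusted p = 0.0241). In the libraries labelled RGS4KO it ranged from 32.7 to 219 CPM without and from 50.9 to 166 CPM with CFA, which spans most of the gap between the WT groups. Ucn, the stress peptide urocortin of the same neurons, was at 1.97, 1.246, 3.76 and 0.245 CPM in naive and 18.6, 13.9, 17.9 and 19.9 CPM in CFA libraries (fold 9.18, interval 3.06 to 27.6, adjusted p = 0.0434). The call for Ucn ended without any 1 WT library. Calcb, a calcitonin gene-related peptide gene, rose from 0.345 ± 0.0627 to 1.68 ± 0.665 CPM (fold 4.87, adjusted p = 0.0100) and kept its call in each of the 8 fits.

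Postn, an extracellular matrix gene, rose from 4.66 ± 1.57 to 21.5 ± 4.26 CPM (adjusted p = 0.0154) and Chodl, known from fast motor neurons, from 2.75 ± 0.355 to 7.53 ± 2.48 CPM (adjusted p = 0.0214). The cholinergic genes Chat (3.45 ± 2.32 and 10.8 ± 5.88 CPM, adjusted p = 0.273) and Slc5a7 (9.89 ± 6.52 and 40.5 ± 22.6 CPM, adjusted p = 0.202) did not pass the test. Postn lost its call without naive library 2, and Cartpt and Chodl each lost theirs in 5 of the 8 fits without 1 WT library. The count of members called was 1 without naive library 2 and at most 4 without any 1 WT library. Among libraries labelled RGS4KO the 5 called genes had CFA folds of 0.878 to 1.09 with no call, and the test of the difference between the sets did not pass (adjusted p of 0.223 and above).

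The largest fold among the called genes was that of Foxd2, a forkhead factor gene in none of the lists. It was at 0.0274, 0.0453, 0.163 and 0.0544 CPM in naive and 0.8001, 0.346, 2.55 and 0.852 CPM in CFA libraries, very low in the naive group (fold 13.9, interval 4.12 to 46.8, adjusted p = 0.0303). Its call ended without any 1 naive library and in a fit of the 8 WT libraries alone (adjusted p = 0.0782). It also ended with no filter on low counts (adjusted p = 0.0546), and DESeq2 gave Foxd2 no adjusted p.

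Other rises with large folds or high levels were spread over several lists or stood in none. Nefm, which encodes a neurofilament subunit, was at 491, 386, 397 and 508 CPM in naive and 684, 634, 657 and 587 CPM in CFA libraries (fold 1.44, adjusted p = 0.0326), while the libraries labelled RGS4KO ran from 442 to 597 CPM, across both WT ranges. Nefl, the light subunit, rose 1.32-fold (adjusted p = 0.0118), and the models of Nefl and Nefm overlap. Spp1, the matrix protein osteopontin, rose from 16.4 ± 3.79 to 43.5 ± 13.2 CPM (fold 2.68, adjusted p = 0.0356), but not in a fit of the 8 WT libraries alone (adjusted p = 0.0513). Kcng4, a modulatory potassium channel subunit, rose from 19.99 ± 4.64 to 42.6 ± 3.76 CPM (fold 2.15, adjusted p = 0.0265). The orphan receptor genes Esrrb (7.01 ± 1.5 to 14.7 ± 1.21 CPM, adjusted p = 0.0184) and Esrrg (57.9 ± 5.52 to 89.4 ± 8.43 CPM, adjusted p = 0.0440) and the vitamin D receptor gene Vdr (0.375 ± 0.0717 to 2.00 ± 0.715 CPM, adjusted p = 0.0115) rose as well. Vdr and Nefl kept their calls in each fit without 1 WT library, while Nefm, Kcng4, Spp1, Esrrb and Esrrg lost theirs in between 4 and 7 of the 8 fits, each without naive library 2 among others. In the libraries labelled RGS4KO the CFA folds were 1.18 (Vdr), 0.908 (Kcng4), 0.866 (Spp1), 0.814 (Esrrb), 0.913 (Esrrg), 0.960 (Nefm) and 0.938 (Nefl). Neither these folds nor their differences from WT passed the test. In naive libraries 5 to 8 labelled RGS4KO Vdr was at 0.207, 0.995, 1.33 and 0.209 CPM, beside Cartpt at 32.7, 140, 219 and 49.5 CPM.

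A second set of rises had tighter values and differed between WT and the libraries labelled RGS4KO. Across all genes 12 passed that test of the difference (0.0654%), 9 of which were also called in WT, and the genes named here were called in WT and not in the other set. Without 1 library this count was 5 to 27 (5 without naive library 8 or CFA library 16 labelled RGS4KO, 27 without naive library 7). Ghsr, the ghrelin receptor gene, was at 5.17, 4.78, 5.79 and 5.44 CPM in naive and 9.62, 10.2, 10.8 and 10.5 CPM in CFA libraries (fold 1.94, interval 1.67 to 2.25, adjusted p = 6.14e-05). The libraries labelled RGS4KO lay between the WT groups (6.24 to 9.38 CPM naive, 6.36 to 7.77 CPM CFA). The CFA fold in WT was 2.11 times that in the other set (adjusted p = 0.00315).

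Cbln1, a synaptic organiser secreted by relay neurons, was at 16.8, 13.9, 17.6 and 15.2 CPM in naive and 20.9, 22.3, 28.9 and 22.7 CPM in CFA libraries. It rose 1.49-fold in WT (adjusted p = 0.00737) against a CFA fold of 0.791 in the libraries labelled RGS4KO (adjusted p = 0.333), a difference of 1.89-fold (adjusted p = 0.0217), and its model overlaps the non-coding gene Gm2694. Its levels in the libraries labelled RGS4KO were 19.8 to 24.4 CPM naive, in part within the WT CFA range, and 15.6 to 18.7 CPM CFA. Prss12, a secreted synaptic protease, was at 6.13, 5.98, 5.74 and 6.01 CPM in naive and 9.44, 7.95, 8.79 and 8.70 CPM in CFA libraries (fold 1.46, adjusted p = 0.000270). The libraries labelled RGS4KO again lay between, at 6.71 to 7.87 CPM naive and 6.55 to 6.95 CPM CFA (difference 1.61-fold, adjusted p = 0.00435). The adhesion gene Pcdh9 (fold 1.26), the axon guidance gene Slit3 (fold 1.33) and the heparan sulphate enzyme gene Ndst4 (fold 1.31) also rose in WT, with differences between the sets of 1.35, 1.41 and 1.42-fold (adjusted p = 0.0377, 0.0402 and 0.0377). The mean of the naive libraries labelled RGS4KO was above that of WT naive ones for these 3 genes and for Ghsr, Cbln1 and Prss12. For example, it was 148 against 130 CPM for Pcdh9, 22.1 against 15.9 CPM for Cbln1 and 7.38 against 5.29 CPM for Ghsr. For Pcdh9 the libraries labelled RGS4KO ran from 126.8 to 162.2 CPM. WT naive libraries lay at 128.4 to 132.0 CPM and WT CFA libraries at 154.9 to 172.6 CPM. Of 19 tested relay neuron markers 3 were called higher and 0 lower, against 1.42% called higher among all genes. The 3 included Cbln1 and the axonal adhesion gene Ntng1 (fold 1.15, adjusted p = 0.0105), and their calls held in each fit without 1 WT library. The median log2 change over those markers was 0.13, and their summed level overlapped between the WT groups (1676 to 1768 against 1721 to 1906 CPM).

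**Figure D4:**
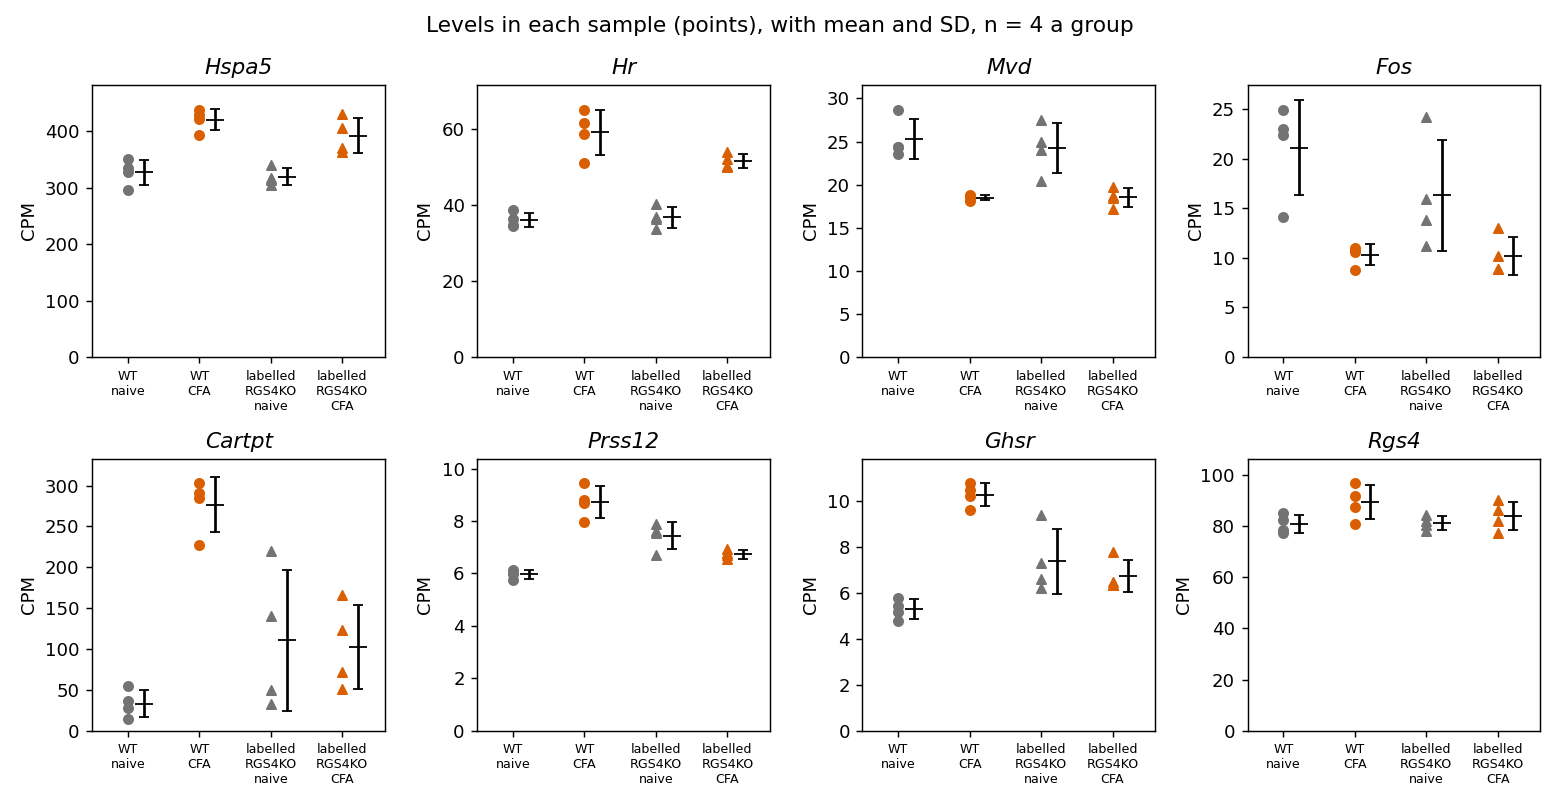
CPM (y axes, from 0) of 8 genes in the 4 groups (x axes), with 1 point per library and the mean ± SD of 4 libraries beside them. Hspa5, Hr and Mvd moved alike in WT and in libraries labelled RGS4KO, Prss12 and Ghsr separated the WT groups with the other libraries between them, Cartpt separated the WT groups while the other libraries were spread widely, and Rgs4 overlapped in every group.

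Some receptor and channel genes passed the test. The counts in this and the next paragraph stand beside 2.23% called among all genes (1.42% higher, 0.807% lower). Of 18 ionotropic glutamate receptor genes 2 rose and 0 fell. Grin2c, an NMDA receptor subunit gene, was at 35.3, 33.5, 37.9 and 37.4 CPM in naive and 46.4, 46.9, 41.3 and 46.7 CPM in CFA libraries (fold 1.26, adjusted p = 0.00174). Grin3b, another subunit of that receptor, rose from 0.959 ± 0.0682 to 1.80 ± 0.281 CPM (fold 1.86, adjusted p = 0.00968), and its model overlaps Tmem259. Among 33 opioid, monoamine, cannabinoid and muscarinic receptor genes, Htr2a (fold 1.35, adjusted p = 0.0152) and Chrm5 (fold 1.32, adjusted p = 0.0370) rose, the latter not in a fit of the 8 WT libraries alone (adjusted p = 0.0581). The mu opioid receptor gene Oprm1 was at 11.4 ± 1.67 and 12.6 ± 0.564 CPM (adjusted p = 0.366).

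Of 30 potassium channel genes, Kcna2, an axonal channel that limits firing, rose 1.22-fold (adjusted p = 0.0241) and the calcium-gated Kcnn1 1.20-fold (adjusted p = 0.0344), and 0 fell. Kcna2 and Chrm5 lost their calls in 6 of the 8 fits without 1 WT library, Kcnn1 in 5, and Htr2a without naive library 2 or CFA library 11. Rgs7bp, which anchors R7 family RGS proteins at the membrane, was the 1 of 17 RGS-related genes to pass (115 ± 3.46 to 134 ± 3.49 CPM, adjusted p = 0.0367), and its call ended without any 1 WT library. Ngfr, the p75 neurotrophin receptor gene, was at 3.83, 4.71, 3.72 and 5.57 CPM in naive and 2.66, 2.00, 2.89 and 2.85 CPM in CFA libraries. It fell without overlap (fold 0.585, interval 0.476 to 0.718, adjusted p = 0.00734) and was the 1 called among 13 neurotrophin and Trk genes. Cplx2, a regulator of vesicle fusion, fell from 708 ± 35.0 to 610 ± 27.1 CPM (adjusted p = 0.0170) and Nlgn3, a postsynaptic adhesion gene, from 52.0 ± 2.52 to 46.1 ± 2.10 CPM (adjusted p = 0.0170). The call for Cplx2 ended without naive library 2 or CFA library 10, and that for Nlgn3 in 4 of the 8 fits.

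Further genes fell as well. Rfx4, a transcription factor gene of neural progenitors and glia, was at 27.5, 30.1, 28.1 and 28.8 CPM in naive and 23.4, 23.6, 24.1 and 24.3 CPM in CFA libraries, tight within each group (fold 0.833, adjusted p = 0.00195). Rsrp1, an arginine and serine rich protein gene, fell from 383 ± 6.19 to 333 ± 12.95 CPM (adjusted p = 0.00270) and Tspoap1, a presynaptic scaffold gene, from 348 ± 4.66 to 301 ± 13.8 CPM (adjusted p = 0.00274). Cst3, the protease inhibitor cystatin C, fell to 0.890 of its naive level (adjusted p = 0.0127), Agrn, the matrix proteoglycan agrin, to 0.879 (adjusted p = 0.00609) and Tnxb, a tenascin gene, to 0.668 (adjusted p = 0.00549). In the list of 28 extracellular matrix genes, which does not hold these, Postn and Spp1 rose and 0 fell (1.42% of all genes were called higher). Rpl29 fell from 4.27 ± 0.364 to 2.69 ± 0.465 CPM (adjusted p = 0.00358), the 1 called of 71 ribosomal protein genes (1.41%, against 2.23% of all genes). Ribosomal protein genes have many near-identical copies, so its unique counts are uncertain. Rfx4, Rsrp1 and Rpl29 fell in the libraries labelled RGS4KO too (folds 0.857, 0.877 and 0.652, adjusted p = 0.0248, 0.0119 and 0.0248).

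The inflammation, microglia and mature oligodendrocyte lists held no call by either tool. Of all 18350 genes 3223 had an unadjusted p under 0.05 and DESeq2 called 766. These shares stand beside the counts in this and the next paragraph. None of 29 tested interferon and inflammation genes passed the edgeR test (folds 0.845 to 1.27, 5 with an unadjusted p under 0.05, 0 called by DESeq2), and Tnf, Il1b, Il6, Ccl2, Cxcl10 and Lcn2 fell under the count filter. Of 14 microglia markers 0 were called by either tool and 2 had an unadjusted p under 0.05, with P2ry12, a purine receptor of resting microglia, at 18.6 ± 1.14 and 16.3 ± 1.86 CPM (adjusted p = 0.171). Gfap, the filament gene that rises in reactive astrocytes, was at 66.1 ± 10.3 and 69.2 ± 11.2 CPM (adjusted p = 0.886). For 13 mature oligodendrocyte markers the median log2 change was 0.23, with 0 called by either tool (1 with an unadjusted p under 0.05), and Mobp, a myelin protein gene, was at 1114 ± 146 and 1384 ± 39.2 CPM (adjusted p = 0.303). All 8 serotonin neuron genes had folds below 1 (0.479 to 0.918), 4 of them with an unadjusted p under 0.05 and 0 called by either tool.

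The GABA, G protein, metabotropic glutamate receptor and oxidative phosphorylation lists held no call in the edgeR test, which does not show an absence of change. Of 20 GABA synthesis and receptor genes 0 passed the edgeR test (5 with an unadjusted p under 0.05, 1 called by DESeq2), and Gabrb2, a GABA-A receptor subunit gene, just missed it (178 ± 4.17 and 198 ± 8.42 CPM, adjusted p = 0.0501). Of 34 G protein and effector genes 0 passed (9 with an unadjusted p under 0.05, 3 called by DESeq2), nor did any of 10 metabotropic glutamate receptor and Homer genes (4 with an unadjusted p under 0.05, 0 called by DESeq2). Nuclear oxidative phosphorylation genes had folds of 0.956 to 1.08, with 0 called by either tool and 4 with an unadjusted p under 0.05. The fold was above 1 in 39 of 47, against 9085 of all 18350 genes.

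In the libraries labelled RGS4KO, CFA and naive differed at 34 genes (0.185%), 18 higher and 16 lower, with 16 to 42 genes called without 1 library (16 without naive library 6 or CFA library 15 or 16 labelled RGS4KO). Of these 21 were also called in WT, 13 higher and 8 lower, each in the same direction. The 261 genes called higher in WT had a median log2 change of 0.055 in the libraries labelled RGS4KO, and 179 of them (68.6%) had a fold above 1 there, against 48.8% of all genes. Of the 148 genes called lower in WT, 104 (70.3%) had a fold below 1 there. Genes called in both sets with values not given above included Pde10a, a striatal phosphodiesterase (folds 1.12 in WT and 1.18 in the libraries labelled RGS4KO, adjusted p = 0.00959 and 0.00142), Galnt18 (1.26 and 1.40, adjusted p = 0.00795 and 0.000856), Hip1 (1.247 and 1.18, adjusted p = 0.000327 and 0.0158) and Lypd6b (0.760 and 0.715, adjusted p = 0.0162 and 0.0189). The remaining WT calls were not shown to be absent from the other set, since 12 genes in all passed the test of the difference.

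**Figure D5:**
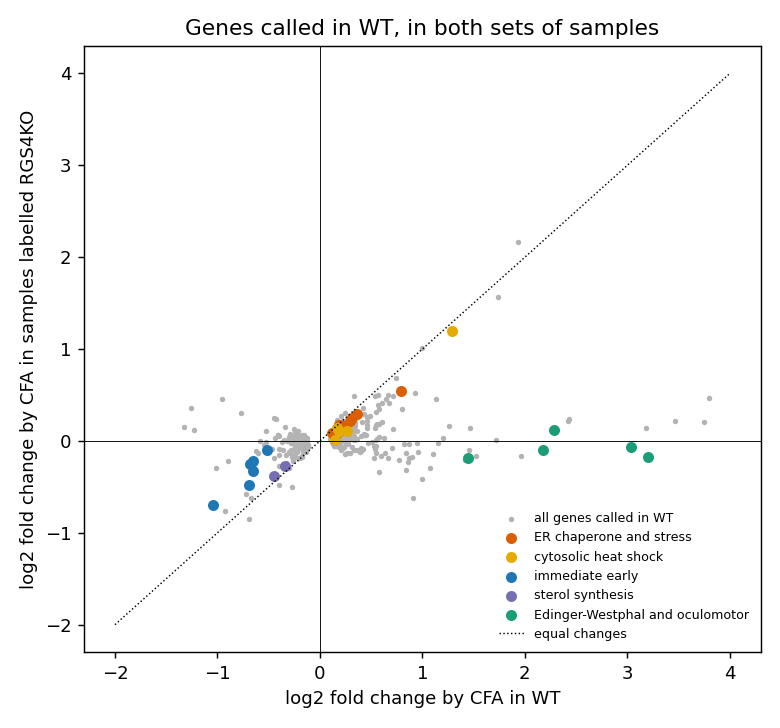
Log2 fold change by CFA in WT (x axis) and in the libraries labelled RGS4KO (y axis) for each of the 409 genes called in WT, with 5 gene lists in colour and a dotted line where both would be equal. ER chaperone and sterol genes lie near the dotted line, while Edinger-Westphal and oculomotor genes lie near 0 on the y axis.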

How the data were processed

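The members and gene lists were chosen with earlier results of these data known, and no list is independent support. Libraries were made from total RNA with the TruSeq RNA kit, version 2, per the labels' protocols, which does not mark strand. The authors deposited raw counts of reads per Ensembl gene with 5 closing summary lines. TopHat, DESeq2 and build mm10 are named without versions per the submitters' processing notes. The counts are labelled htseq_counts, and no source used here names a version of the counter, the annotation release or the strand setting. The 5 summary lines entered neither library sizes nor tests. In WT, reads not uniquely aligned made up 24.1% to 26% of listed reads and reads without a feature 11.2% to 12.2%. GENCODE matched 37607 of 38924 gene IDs to a symbol and position.

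The tests used edgeR 4.0.16 (R 4.3.3). Genes entered at a minimum count of 10 (filterByExpr, 99.961% of counts), scaled by TMM and fitted by a robust quasi-likelihood model with 1 mean for each of the 4 groups over 16 libraries, which gave a common biological coefficient of variation of 6.1%. P-values are two-sided, adjusted by Benjamini-Hochberg over 18350 genes and called under 0.05. Unless another tool is named, each adjusted p is from this test. Levels are CPM on TMM-scaled totals as mean ± SD (n = 4), and folds with 95% intervals come from the model. Groups were taken as separate pools of mice, so the spread is that between pools. Replicates differed beyond counting noise (chi-square per degree of freedom 4.47 to 10.9), so none was taken as a duplicate. On simulated data of the WT comparison (18219 genes) the script recovered 56%, 74%, 92% and 94% of genes changed 1.25, 1.5, 2 and 3-fold, with 6 false calls. List counts and medians carry no set test.

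Named genes were the 15 largest rises and falls with at least 1 CPM and no overlap, the 8 with the lowest p and the 6 most abundant called genes in each direction, up to 6 called members of each of 40 lists (otherwise 2), 8 interaction genes and Rgs4, not all of which are reported here. Atf4, Ddit3, Trib3, Calr, Manf, Sel1l, Pdia6, Hsp90b1, Xbp1, Hspa1a, Dnajb1, Sgk1, Pdk4, Arc, Npas4, Nr4a1, Bdnf, Hmgcs1, Idi1, Nr1d1, Per2, Chat, Slc5a7, Tcf7l2, Slc17a6, Tph2, Gfap, Oprm1, Mfsd2a, Galnt18, Hip1 and Lypd6b were named outside that rule, after their values were seen. An unstranded kit cannot separate overlapping genes, which concerns Plin4, Htra1, Junb, Grin3b, Nefm, Nefl, Dbp, Cbln1, Manf, Pdia3, Pdia6, Hsp90b1, Caln1, Pprc1, Glul, Kcnn1, Nlgn3 and P2ry12. Alternatives were DESeq2 1.42.0, its size factors, no filter, no robust estimation, WT libraries alone, thinning and leaving out libraries.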

Additional observations from a re-analysis of the deposited data

Results flagged for a closer look

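Single libraries stood far from the other 3 of their group in 11 named genes and 1 sum, by a gap beyond Dixon's 95% critical value for 4 samples, which chance gives in about 1 of 20 groups. The gap was looked for in 246 sets of 4 libraries, so the 12 found are about as many as chance would give. Naive library 4 was high for Kif5c (851.2 CPM), Nat8f5 (1.984 CPM) and Emx1 (0.5437 CPM). Naive library 2 was high for Mvd (28.7 CPM) and low for Pprc1 (30.76 CPM) and Slc2a1 (90.64 CPM), and its summed level of 4 Y-linked genes (1.291 CPM) was above that of its group. Naive library 1 was low for Tmem212 (10.56 CPM) and Nfkbia (15.45 CPM), and naive library 3 high for Fkbp5 (30.77 CPM). CFA library 11 was high for Lum (2.031 CPM) and low for Grin2c (41.32 CPM).

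The CFA fold in WT differed from that in the libraries labelled RGS4KO, by the edgeR interaction test, for 7 named genes. The ratio of the 2 folds was 2.106 for Ghsr, 1.607 for Prss12, 1.886 for Cbln1, 2.651 for the antisense gene Gm11413, 1.424 for Ndst4, 1.351 for Pcdh9 and 1.409 for Slit3. In each of these 7 genes the mean of the naive libraries labelled RGS4KO was above that of the WT naive ones.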

How the results depend on the processing

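No paired analysis was possible because library numbers run from 1 to 16 through the series and no number is shared between groups. The 409 WT calls became 766 in DESeq2 (388 shared) and 252 with counts thinned to the shallowest library, and between 178 and 754 without 1 library, 178 without naive library 2 and 754 without naive library 8 labelled RGS4KO. The libraries labelled RGS4KO gave 34 calls, 87 in DESeq2 and between 16 and 42 without 1 library. The interaction gave 12 calls, 90 in DESeq2, 31 without the filter, 7 without robust estimation and between 5 and 27 without 1 library. Over the 8 fits without 1 WT library the called members ranged from 7 to 12 (ER), 1 to 3 (heat shock), 1 to 9 (immediate early), 1 to 4 (Edinger-Westphal and oculomotor) and 0 to 4 (glucocorticoid). Immediate early calls numbered 10 in DESeq2 and 2 without the filter, and glucocorticoid calls 5 in DESeq2 and 0 with WT libraries alone. The cause of these shifts was not tested. Of 1704 refits of named genes 1447 kept their side of the threshold, 236 lost the call, 21 gained it and 0 reversed. A change of sign counted as reversed only where either fit called the gene. Of the 122 named genes 85 were called, and only these had a call to lose. Fits without a library labelled RGS4KO in the WT count, list counts under each alternative, all alternatives for those libraries and the refits of single values were added after seeing the data. With no filter on low counts 29917 genes were tested and 393 called in WT.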
